A study of Mus musculus with 2 samples.

Results

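Hepatocyte2 was 1 of 5 clusters of hepatocytes that the authors separated by single-cell RNA-seq of mouse liver cells. Its members here were the genes that the deposited tables list for this cluster: 56 of the 1609 genes of a table in which each hepatocyte cluster was set against the other hepatocytes (3.48%), and 10 of the 1755 genes of a table in which each of 12 clusters was set against all other cells (0.57%). Together these were 59 genes, of which 7 were listed in both tables, 49 in the hepatocyte table alone and 3 in the table of all cells alone. Each gene came with 2 shares: the percentage of Hepatocyte2 cells in which it was detected, that is, had a value greater than 0, and the same percentage among the reference cells.

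The cells came from BALB/c wild type mice that had received a daily intraperitoneal injection of PBS, the vehicle, or of 0.5 µg recombinant interleukin-33 (rIL-33) for 5 days, and the paper describes the mice as fasted. Livers were digested by 2-step perfusion, and each condition gave 1 droplet-based 10x Genomics 3′ library, 2 in all, made without sorting. The methods give male mice, aged 8 to 10 weeks for hepatocyte isolation, and the number of mice behind each library is not given in the sources used here. Both tables pool the 2 libraries, so PBS and rIL-33 were not compared, and no test was run because the cells compared are those from which the clusters were made.

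Hepatocytes are the epithelial cells of the liver, which secrete most plasma proteins, make and store glucose, oxidise fatty acids, and convert the nitrogen of amino acids to urea. Along each lobule these tasks are divided between cells close to the portal vein and cells close to the central vein. As in other cells, damaged or surplus proteins are tagged with ubiquitin and cut up by the proteasome, a barrel of protease subunits capped by a regulatory particle, while respiratory chain and ATP synthase in mitochondria supply energy and give off oxidants that peroxiredoxins and other enzymes remove.

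The genes listed for Hepatocyte2 joined several of these tasks: 7 belonged to the proteasome and ubiquitin, 9 to the respiratory chain, ATP synthase and mitochondrial import, 8 to the defence against oxidants and reactive aldehydes, 5 to amino acid breakdown, the urea cycle and NAD synthesis, and 4 were copies of the alpha-1-antitrypsin gene. All 56 genes of the hepatocyte table had a higher share in Hepatocyte2 than in the other hepatocytes, and 53 had a share at least 10 percentage points higher. Over all 2103 entries of that table, 85.3% did. The other hepatocytes were mostly cells of Hepatocyte1, which held 55.6% of all hepatocytes. A higher share than theirs need not hold against each single cluster. The share in Hepatocyte2 ran from 29.7% to 100%, with a median of 69.9%, and that in the other hepatocytes from 9.2% to 98.2%, with a median of 31.35%. The difference ran from 1.8 to 44.3 points, with a median of 33.65 points against 33.9 points over all entries. The genes were listed from the same cells that were clustered, so these differences are descriptions, and their median was close to that of the table as a whole.

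**Figure D1:**
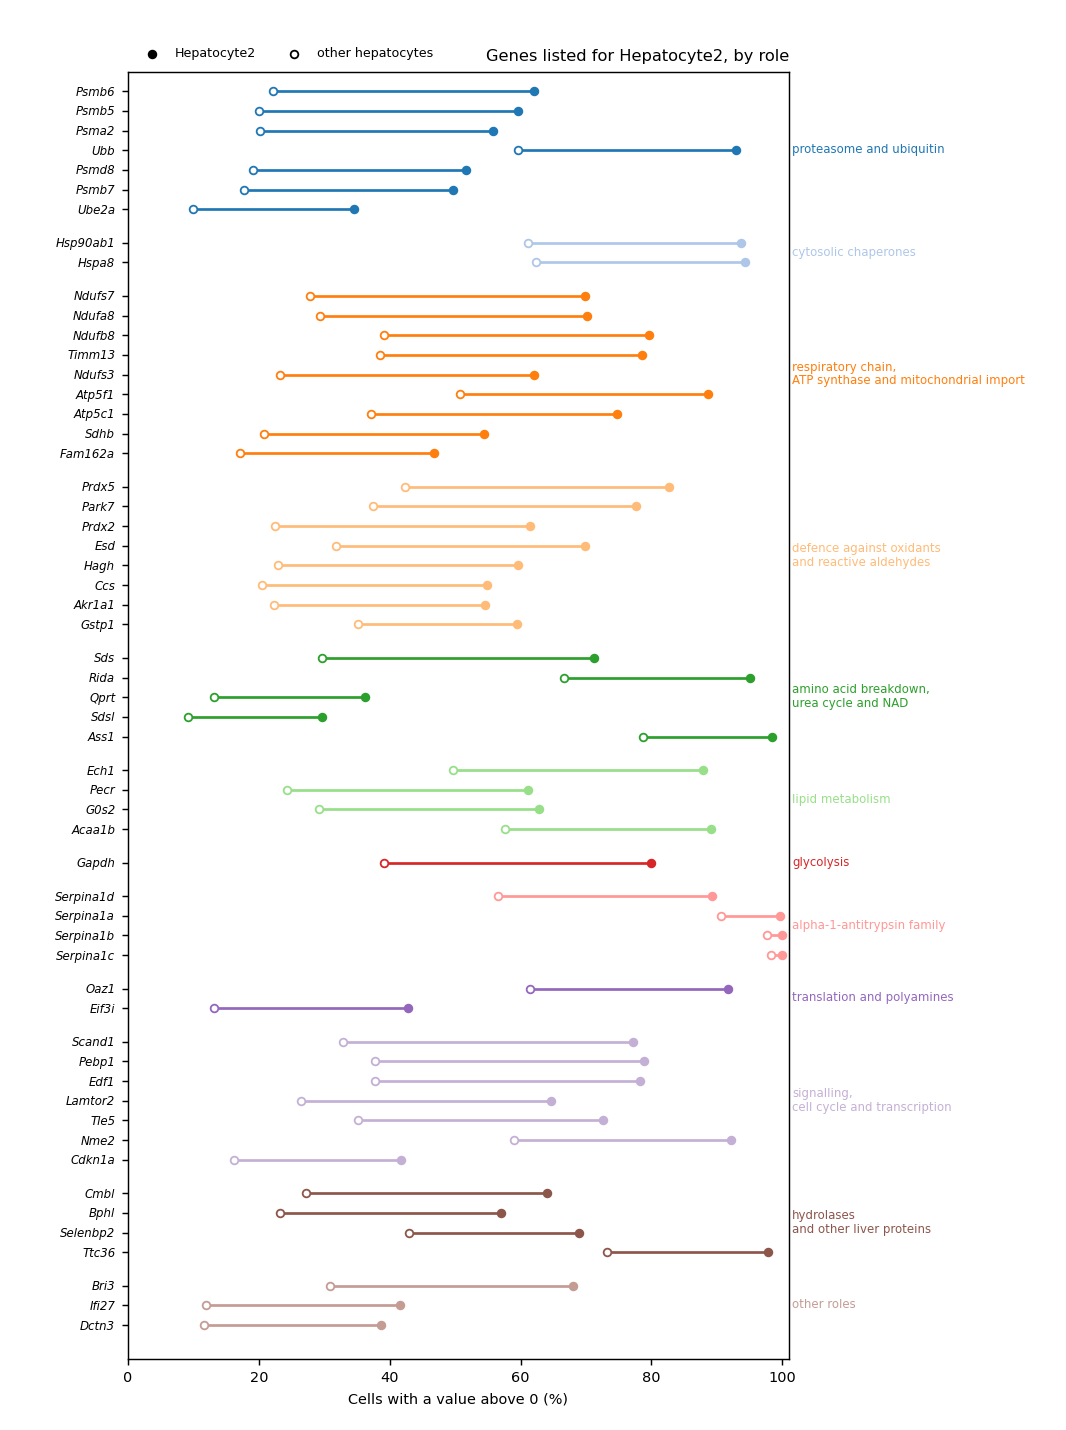
Cells in which a gene was detected (%) for the 56 genes listed for Hepatocyte2 in the hepatocyte table, grouped by role; filled points are Hepatocyte2 and open points the other hepatocytes, each line joining both values of a gene. Every filled point lies to the right of its open point, and the lines of Serpina1a, Serpina1b and Serpina1c are the shortest because both shares are above 90%.

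The name of the cluster was checked against albumin, the most abundant protein that hepatocytes secrete. Alb was not listed for Hepatocyte2, but it was found in 100% of the cells of the clusters that did not list it, so its share in Hepatocyte2 was at least 99.6%. By the same balance of shares, Ttr, which encodes a carrier of thyroid hormone and retinol, was present in at least 98.9% of Hepatocyte2 cells and Apoa1, the main protein of high-density lipoprotein, in at least 95.7%. Other hepatocyte markers were less certain: Trf was present in at least 50.7%, and the bounds on Hnf4a ran from 0% to 100%. None of 39 marker genes of 7 other cell types was listed for Hepatocyte2 in either table, whereas 32 were listed for some cluster of the table of all cells. Only 0.57% of the genes of that table were listed for Hepatocyte2, so this absence is no result about the name of the cluster. Of these 7 lists, the endothelial one alone was represented in the hepatocyte table, by 1 gene. Hepatocyte2 held 14.9% of the hepatocytes and 13.4% of all cells, as computed from the shares of genes listed for several clusters.

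UMI counts were not analysed here, so the depth behind each share is unknown and counting error could not be given as an interval. A share rises with the number of transcripts counted per cell, and depth was not equalised between clusters; its part in the differences was not tested. The share of each gene in a cell type that should lack it could not be computed, so the level given by free RNA in the droplets is unknown. It is likewise unknown here how each library contributed to Hepatocyte2.

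The gene lists were chosen with earlier results of these data known, so their order is a description. Among the lists with more than 2 genes in the table, the proteasome subunits had the largest fraction listed for Hepatocyte2. Against 3.48% over all genes of the table, this was 45.5%, or 5 of the 11 subunits found there. Promoters of 4 of them are shown because these genes were listed together, in the 250 bases before the RefSeq start (GRCm38.p6, 5′ to 3′ on the gene's strand). Capitals mark matches on either strand to TGACNNNGC, the core of the antioxidant response element, or to GCGCATGC, the core of the motif of nuclear respiratory factor 1.
Psmb5 (chr14:54617996-54618245, minus strand): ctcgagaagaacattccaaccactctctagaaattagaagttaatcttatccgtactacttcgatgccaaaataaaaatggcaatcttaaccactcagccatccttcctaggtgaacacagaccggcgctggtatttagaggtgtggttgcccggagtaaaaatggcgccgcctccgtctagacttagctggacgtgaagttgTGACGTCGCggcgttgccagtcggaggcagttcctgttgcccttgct
Psmb6 (chr11:70525107-70525356, plus strand): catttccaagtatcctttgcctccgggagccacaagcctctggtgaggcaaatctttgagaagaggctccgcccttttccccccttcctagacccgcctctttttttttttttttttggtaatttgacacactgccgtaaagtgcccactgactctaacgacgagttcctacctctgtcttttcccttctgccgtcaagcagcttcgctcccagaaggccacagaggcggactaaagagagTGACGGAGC
Psma2 (chr13:14612992-14613241, plus strand): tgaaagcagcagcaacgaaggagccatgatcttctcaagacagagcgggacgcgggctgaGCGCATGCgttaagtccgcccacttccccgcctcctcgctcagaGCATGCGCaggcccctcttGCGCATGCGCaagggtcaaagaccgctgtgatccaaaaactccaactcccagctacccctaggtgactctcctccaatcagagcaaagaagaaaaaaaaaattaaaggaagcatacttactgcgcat
Psmd8 (chr7:29180674-29180923, minus strand): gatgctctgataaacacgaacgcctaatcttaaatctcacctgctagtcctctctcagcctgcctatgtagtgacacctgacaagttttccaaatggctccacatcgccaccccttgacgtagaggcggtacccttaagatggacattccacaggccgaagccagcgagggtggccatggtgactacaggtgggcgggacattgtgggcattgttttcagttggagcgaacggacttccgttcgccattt
Psmb5 and Psmb6 held 1 match each to TGACNNNGC, starting at positions -47 and -9 relative to the start, Psma2 held 4 matches to GCGCATGC, of which 2 overlap on opposite strands, and Psmd8 held neither motif. Over the 44 of 59 members with an entry, in windows from 250 bases before to 50 after the start, TGACNNNGC was found in 10 (22.7%) against 14.0% of 27025 genes. GCGCATGC was found in 6 (13.6%) against 3.05%, in Ndufa8, Timm13, Psma2, Bphl, Sdhb and Akr1a1. The GC box, GGGCGG, was found in 28 (63.6%) against 38.2%, CCAAT in 17 (38.6%) against 41.1%, and the TATA box, TATAAA, in 4 (9.09%) against 15.7%. These matches are descriptions of letters and not of bound sites, and no test was made. The 27025 genes are not limited to genes of the hepatocyte table, so these percentages do not show a feature particular to Hepatocyte2. The members without an entry were Sds, Atp5f1, Tle5, Ccs, Hsp90ab1, Psmb7, Hspa8, Eif3i, Ifi27, Rida, Ttc36, Sdsl, Rgn, Fgl1 and Nnmt.

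Psmb6, which encodes the catalytic subunit that cuts after acidic residues, was detected in 62.1% of Hepatocyte2 cells and in 22.1% of the other hepatocytes. Psmb5 (chr14:54614119-54618022, minus strand, GRCm38) encodes the catalytic subunit with chymotrypsin-like activity, the target of bortezomib, and was detected in 59.6% against 20%. Psmb7, the catalytic subunit that cuts after basic residues, was detected in 49.7% against 17.8%. All 3 catalytic subunits of the constitutive proteasome were therefore listed for Hepatocyte2. Psma2, a subunit of the outer ring of the barrel, was detected in 55.8% against 20.2%, and Psmd8, a subunit of the regulatory particle, in 51.7% against 19.1%. The other 6 proteasome genes of the table, Psmb1, Psmb4, Psma7, Psmc3, Psmc5 and Psmd4, were listed for Hepatocyte1 or Hepatocyte3 only. Psmb4, for example, was found in 21.1% of Hepatocyte1 cells against 49.6% of the other hepatocytes.

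Ubb (chr11:62551171-62553213, plus strand, GRCm38), a polyubiquitin gene whose coding sequence is a run of 4 ubiquitin units of 228 bases each, was detected in 93.0% of Hepatocyte2 cells and in 59.6% of the other hepatocytes. Its units were 95.6% to 99.1% identical to the first. Ube2a, a ubiquitin-conjugating enzyme, was the least detected of the group, at 34.5% in Hepatocyte2 against 10.0%. Of the cytosolic chaperones, which fold proteins or pass them on for degradation, Hsp90ab1 was found in 93.7% against 61.2% and Hspa8 in 94.3% against 62.4%. Of the list of immediate early and heat shock genes known to respond to cell isolation, which does not hold Hsp90ab1, 6 were in the table. Of these, 1, Hspa8, was listed for Hepatocyte2, and 0 of the 16 chaperones of the endoplasmic reticulum were. With 3.48% of all genes of the table listed for Hepatocyte2, counts this small are no result about either list.

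The mitochondrial group held 9 genes. Of the subunits of complex I, the entry point of electrons from NADH, Ndufs7 was found in 69.9% of Hepatocyte2 cells against 27.8% of the other hepatocytes. Ndufa8, an accessory subunit of the same complex, was found in 70.1% against 29.4%, and Ndufb8, another one, in 79.7% against 39.2%. Ndufs3, a core subunit of complex I, was detected in 62.0% against 23.3%. Sdhb, the iron-sulphur subunit of complex II that links the citric acid cycle to the respiratory chain, was detected in 54.4% against 20.8%. For the ATP synthase, the share of cells with Atp5f1 was 88.6% against 50.8% and that with Atp5c1 74.8% against 37.2%. Timm13, a chaperone of protein import between the mitochondrial membranes, reached 78.5% against 38.5%, and Fam162a, a mitochondrial membrane protein, 46.8% against 17.2%. The 7 listed genes of the respiratory chain and ATP synthase were 7 of 58 in the table (12.1%), against 3.48% of all its genes. Of the 58, 39 were listed for Hepatocyte1 and 17 for Hepatocyte3. These listings differ in direction. All 39 had a lower share in Hepatocyte1 than in the other hepatocytes, with differences from -31.1 to -7.5 points. The 17 of Hepatocyte3 ran from -3.8 to 4.2 points, and the 7 of Hepatocyte2 from 33.6 to 42.1 points.

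In the defence against oxidants, Prdx5 and Prdx2, peroxiredoxins that reduce peroxides, reached shares of 82.7% against 42.4% and of 61.5% against 22.4%, respectively, in Hepatocyte2 and the other hepatocytes. Park7, a redox-sensitive protein known from hereditary parkinsonism, was found in 77.6% against 37.4%. Ccs, the chaperone that delivers copper to superoxide dismutase, reached 54.9% against 20.5%. Reactive aldehydes are dealt with by the other genes of the group. Esd, which hydrolyses S-formylglutathione, was detected in 69.9% against 31.8%, and Hagh, glyoxalase II, which clears the methylglyoxal adduct of glutathione, in 59.6% against 22.9%. Akr1a1, an aldehyde reductase, was detected in 54.6% against 22.3%, and Gstp1, a glutathione S-transferase, in 59.5% against 35.1%. Among the 21 antioxidant and metal binding genes of the table, 4 were listed for Hepatocyte2 and 14 for Hepatocyte3. The 4 were 19.0% of the 21, against 3.48% of all genes of the table. The difference from the other hepatocytes ran from -2.2 to 9.2 points for the 14 and from 34.4 to 40.3 points for the 4.

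Enzymes of amino acid metabolism covered most of the range of detection. Sds, serine dehydratase, which turns serine into pyruvate and ammonia, was found in 71.3% of Hepatocyte2 cells against 29.7% of the other hepatocytes. Sdsl, the serine dehydratase-like gene, had the lowest share of all 56 members, at 29.7% against 9.2%. Both genes lie on chromosome 5 with 3715 bases between them. Ass1, the urea cycle enzyme that joins citrulline and aspartate, was found in nearly every cell, at 98.5% against 78.7%. Rida, which hydrolyses reactive imines formed during amino acid breakdown, was found in 95.1% against 66.7%, and Qprt, an enzyme of NAD synthesis from tryptophan, in 36.3% against 13.2%. Among the table's 27 genes of amino acid breakdown and the urea cycle, 4 were listed for Hepatocyte2 and 18 for Hepatocyte4. The 4 were 14.8% of the 27, against 3.48% of all genes of the table.

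Of the genes of lipid metabolism, Ech1, an enzyme that shifts double bonds during fatty acid oxidation, was detected in 87.9% against 49.7%. Acaa1b, a thiolase of peroxisomal fatty acid oxidation, was detected in 89.1% against 57.6%. Pecr, a peroxisomal enoyl-CoA reductase, reached 61.1% against 24.3%, and G0s2, an inhibitor of the triglyceride lipase ATGL, 62.8% against 29.2%. Gapdh was the single gene of glycolysis and gluconeogenesis listed for Hepatocyte2, 1 of 9 in the table, at 79.9% against 39.1%. A count of 1 is no result about this list, with 3.48% of all genes of the table listed for Hepatocyte2. The key gluconeogenic genes G6pc and Pck1 were not listed for it: G6pc was found in 12.1% of the cells of the 3 clusters that did not list it, Hepatocyte2 included, which caps its share in Hepatocyte2 at 65.6%, and the bounds on Pck1 were too wide to place it.

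The 4 listed members of the alpha-1-antitrypsin family, protease inhibitors secreted by hepatocytes, lie side by side over 177 kb (chr12:103728156-103904887, GRCm38). Their coding sequences were compared over 1242 bases and were 96.5% to 98.5% identical, with 69 positions at which these 4 copies were not all alike. No copy beyond these 4 was compared. The stretch with the most such positions, 14 of the 60 bases from 857 to 916, is shown because reads can be assigned to a copy only where the letters differ. Where the reads of these 3′ libraries fall was not examined, and sequence outside the coding part was not compared. Capitals mark the differing positions.
Serpina1a: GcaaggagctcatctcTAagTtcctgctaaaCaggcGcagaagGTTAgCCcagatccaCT
Serpina1b: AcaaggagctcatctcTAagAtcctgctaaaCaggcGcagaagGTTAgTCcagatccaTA
Serpina1c: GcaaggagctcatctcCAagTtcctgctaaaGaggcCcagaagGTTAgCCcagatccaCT
Serpina1d: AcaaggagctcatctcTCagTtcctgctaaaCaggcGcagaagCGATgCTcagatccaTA
Serpina1c was detected in 100% of Hepatocyte2 cells against 98.2% of the other hepatocytes, Serpina1b in 99.9% against 97.6%, and Serpina1a in 99.6% against 90.7%. These 3 genes were the ones with a difference under 10 points, and their reference shares were all above 90%. Serpina1d was found in 89.2% against 56.6%. How reads were split between the copies is uncertain, and Serpina1b and Serpina1d overlap on the same strand. These 4 copies were 4 of 16 serpins in the table (25%), against 3.48% of all its genes. Of the 16, 11 were listed for Hepatocyte4 and 12 for Hepatocyte5.

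Regulatory proteins included the gene with the largest difference of all. Scand1 (chr2:156311847-156312704, minus strand, GRCm38), a short protein with a SCAN domain of the kind that pairs zinc finger factors, was found in 77.2% of Hepatocyte2 cells against 32.9%. Pebp1, an inhibitor of Raf kinase, was found in 78.8% against 37.8%, and Edf1, a transcriptional coactivator that also senses collided ribosomes, in 78.2% against 37.7%. Lamtor2, part of the Ragulator complex that brings mTORC1 to lysosomes, was found in 64.6% against 26.4%. Tle5, a corepressor of the Groucho family, was found in 72.6% against 35.1%, and Nme2, a nucleoside diphosphate kinase, in 92.2% against 59.0%. Cdkn1a, the cyclin-dependent kinase inhibitor p21, was detected in 41.7% against 16.2%. Eif3i, a subunit of the translation initiation factor eIF3, was detected in 42.8% against 13.1%. It was the single member among 12 translation factors in the table to be listed for Hepatocyte2. With 3.48% of all genes of the table listed for this cluster, that count is no result about translation factors. Oaz1, the antizyme that sends ornithine decarboxylase to the proteasome, was found in 91.7% against 61.5%.

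The remaining members had varied roles. Ttc36, a liver and kidney protein with tetratricopeptide repeats, was found in 97.8% of Hepatocyte2 cells against 73.2%. The hydrolases Cmbl and Bphl, both known for activating prodrugs, were found in 64.1% against 27.2% and in 57.0% against 23.3%, respectively. Selenbp2, a selenium-binding protein, reached 68.9% against 42.9%. Bri3, a membrane protein of lysosomes, was detected in 68.0% against 30.9%. Ifi27, an interferon-inducible mitochondrial protein, was detected in 41.6% against 12.0%, and Dctn3, a subunit of the dynein partner dynactin, in 38.7% against 11.7%.

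Because a difference in shares is compressed near 0% and 100%, the shares were also turned into rates, the negative natural log of the share of cells without the gene, which is the mean number of transcripts per cell if counts follow a Poisson distribution. The ratio of the rates in Hepatocyte2 and in the other hepatocytes ran from 1.85 for Serpina1b to 4.21 for Ifi27, with a median of 3.19 over 55 genes; Serpina1c, at 100%, had none. On this scale the leading genes were less abundant ones than by difference: after Ifi27 came Psmb5 at 4.06, Ube2a at 4.02, Eif3i at 3.98 and Dctn3 at 3.93. By role, the median ratio was 3.62 for the proteasome and ubiquitin genes, 3.34 for the mitochondrial genes, 3.19 for the defence against oxidants and aldehydes and 2.32 for 3 of the Serpina1 copies. In every entry of the table the larger share is at least 25%. Ifi27, Ube2a, Eif3i, Dctn3 and the listed proteasome subunits had reference shares below 25%, so their entries required a higher share in Hepatocyte2. High ratios of such genes follow in part from this limit, and the order of genes and roles is no result about them.

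Of the 56 genes, 31 were listed for Hepatocyte2 alone among the hepatocyte clusters and 25 also for another one: 14 for Hepatocyte1, 16 for Hepatocyte3, 1 for Hepatocyte4 and 0 for Hepatocyte5. Among the clusters that list the gene, the share was highest in Hepatocyte2 for 25 of these 25 genes. It was also above the share of the remaining clusters combined, which does not give the share of each of them. The reference cells of the clusters overlap. Where both were given, the share was lower in Hepatocyte1 than in Hepatocyte3 for 6 of 6 genes. All 56 genes listed for Hepatocyte2 had a higher share there, and only 8 of the 170 listed for Hepatocyte1 had one in that cluster. Both orders therefore follow largely from how genes were listed and are no result about the clusters. In Hepatocyte1, Psma2 was found in 14.9% of its cells, Ndufs3 in 18.1% and Ndufs7 in 22.7%. Hepatocyte3 had Ubb at 73.3%, Gapdh at 48.9% and Psmb5 at 30%. The gene nearest to Hepatocyte2 in another cluster was Serpina1a in Hepatocyte4, at 98.8%. For 6 genes, Scand1, Edf1, Prdx5, Park7, Nme2 and Ttc36, shares were given for Hepatocyte1, Hepatocyte2 and Hepatocyte3, and the balance left 40.6% to 68.8% for Hepatocyte4 and Hepatocyte5 together against 77.2% to 97.8% in Hepatocyte2. For the genes not listed for a cluster, that cluster's own share is unknown. It cannot be said from these shares that Hepatocyte2 was the highest of the 5 clusters for all 56 genes, or for all of the 25.

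**Figure D2:**
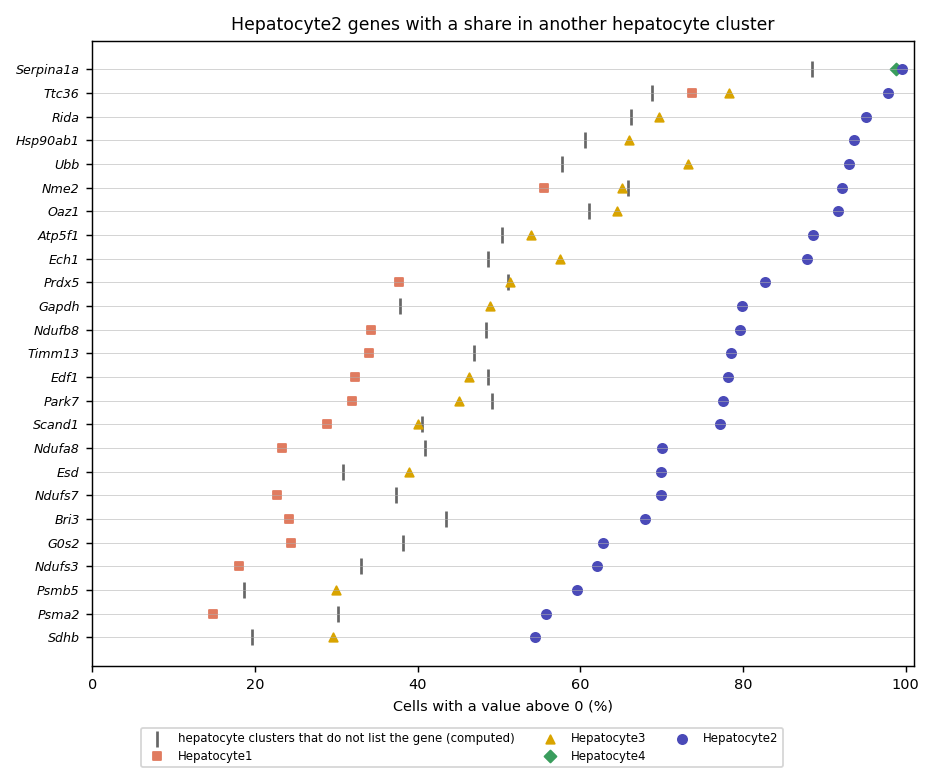
Cells in which a gene was detected (%) for the 25 genes listed for Hepatocyte2 and at least 1 other hepatocyte cluster; circles are Hepatocyte2, squares Hepatocyte1, triangles Hepatocyte3, the diamond Hepatocyte4 and grey bars the clusters that do not list the gene combined. The circle is the rightmost symbol in every line, and where a square is given it is the leftmost one except for Ttc36.

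The lists of the other hepatocyte clusters had other profiles. Of the 170 genes listed for Hepatocyte1 only 8 had a higher share there than in the other hepatocytes, with a median difference of -22.85 points, and of the 123 for Hepatocyte3 79 did, with a median of 1.0 point. Hepatocyte4 and Hepatocyte5, with 880 and 874 genes, had medians of 33.1 and 42.95 points. Hepatocyte2 thus had the shortest list of the 5, and its median lay beside that of Hepatocyte4. The products of its genes were short: the longest annotated transcript had a median of 1240 bases, and a range from 668 to 2911, over the 55 genes matched in GENCODE M21. The median was 918 bases for Hepatocyte1, 1364 for Hepatocyte3, 3431 for Hepatocyte4, 3618 for Hepatocyte5 and 3119.5 over all genes of the table. Among the 59 members, the 58 matched were all protein coding and lay on 19 chromosomes. Of these, Ndufb8, Nme2 and Psma2 overlap another protein-coding gene on the same strand, as do Serpina1b and Serpina1d, so that their reads may be shared.

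**Figure D3:**
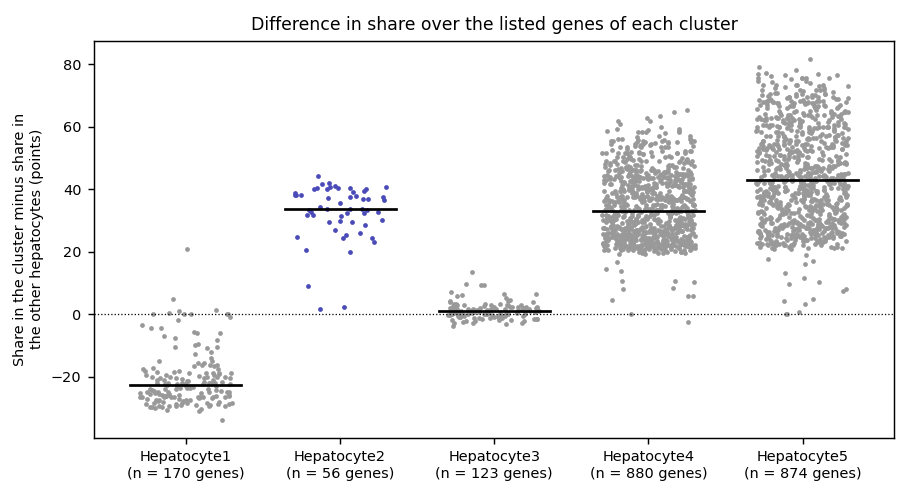
Share in the cluster minus share in the other hepatocytes, in percentage points, for each gene listed for each of the 5 hepatocyte clusters; each point is 1 gene, the horizontal position within a cluster is random and the black bar is the median. The 56 genes of Hepatocyte2 lie between 1.8 and 44.3 points, and Hepatocyte1 lies mostly below 0.

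Other lists of hepatocyte genes had no member listed for Hepatocyte2 in the hepatocyte table: 0 of 8 major urinary proteins, 0 of 11 apolipoproteins, 0 of 23 acute phase genes, 0 of 16 pericentral genes and 0 of 14 genes of methyl group and sulphur amino acid metabolism. With 3.48% of all genes of the table listed for Hepatocyte2, a count of 0 in lists of this length is no result about them. In the table of all cells, 1 acute phase gene (Fgl1), 1 pericentral gene (Rgn) and 1 gene of methyl group metabolism (Nnmt) were listed for it. Of 28 periportal genes 4 were listed, Sds, Sdsl, Ass1 and Serpina1c, against 19 for Hepatocyte4 and 13 for Hepatocyte5. No direction along the lobule was assigned from these counts, since Glul and Cdh1, markers of its opposite ends, were not listed for any hepatocyte cluster. The paper, which plots both markers, describes Glul, high near the central vein, as higher in Hepatocyte1 and Hepatocyte2. It describes Cdh1, high at the portal end, as higher in Hepatocyte4 and Hepatocyte5.

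Set against all other cells, Hepatocyte2 was left with 10 genes. The 7 found in both tables were Ubb, Psmb5, Ttc36, Eif3i, Gapdh, Rida and Serpina1d. Serpina1d was detected in 89.4% of Hepatocyte2 cells and in 55.8% of all other cells, the largest of the 10 differences. Psmb5 was detected in 66.6% against 36.5%, Eif3i in 60.4% against 36.9% and Gapdh in 85.7% against 62.8%. Ubb reached 93.5% against 64.5%, Rida 95.1% against 71.4% and Ttc36 98.1% against 79.2%. For 6 of the 7 the difference was smaller than in the hepatocyte table. The 2 tables gave different shares for the same cluster, from equal for Rida to 17.6 points apart for Eif3i. The count of 6 is therefore a description and cannot be read as the effect of a wider reference. Levels were compared only within a table.

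The 3 genes listed in the table of all cells alone were liver enzymes and a secreted protein. Fgl1, a secreted fibrinogen-like protein, was detected in 93.3% of Hepatocyte2 cells against 72.9% of all other cells. Rgn, regucalcin, an enzyme of sugar acid metabolism that also binds calcium, was detected in 79.3% against 51.6%. Nnmt, which methylates nicotinamide, was detected in 60.6% against 46.8%. In the hepatocyte table Fgl1 was listed for Hepatocyte1, at 32.1% against 55.6%, and for Hepatocyte5, at 94.7% against 41.8%.

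**Figure D4:**
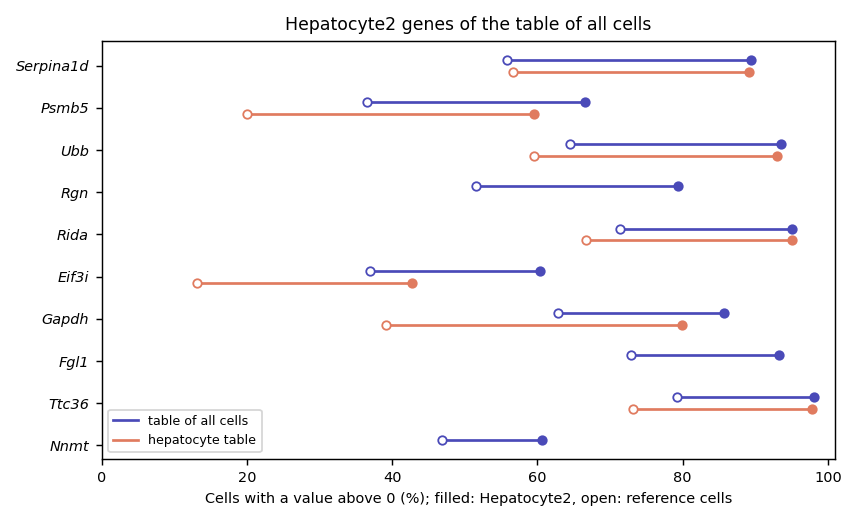
Cells in which a gene was detected (%) for the 10 genes listed for Hepatocyte2 in the table of all cells, with the values of the hepatocyte table below them where the gene is listed there; filled points are Hepatocyte2 and open points its reference cells, all other cells or the other hepatocytes. The lines of the hepatocyte table are longer for 6 of the 7 genes in both, with Serpina1d as the exception. The tables gave different shares for the same cluster, so this cannot be read as the effect of the reference cells.

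In the table of all cells, shares of some of these genes were also listed for blood cells. The tables differ in the shares of the same cluster. Eif3i had a share of 17.53% over all hepatocytes in the hepatocyte table and of 40.05% over all cells in the other table. Whether the shares below count transcripts carried by the blood cells was not tested. Ubb was found in 91.9% of T cells, 87.0% of B cells, 85.2% of neutrophils and 96.3% of red blood cells, beside 93.5% of Hepatocyte2 cells in that table. Eif3i was found in 67.6% of B cells, 56.1% of T cells and 50% of red blood cells, beside 60.4% in Hepatocyte2. Psmb5 was found in 60.1% of T cells and Gapdh in 75.0%. Prdx2, an abundant protein of red blood cells, was found in 98.8% of them against 45.8% of all other cells and was not listed there for Hepatocyte2. Ifi27 was found in 46.2% of red blood cells and in 30.4% of T cells. The part of other cells' RNA in the Hepatocyte2 shares was not tested.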

How the data were processed

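Hepatocytes of 1 PBS and 1 rIL-33 library were grouped from the sample labels. Per the labels and methods, Cell Ranger (mm10) gave the authors' UMI counts; they filtered cells by gene number and mitochondrial share with Seurat, scaled and log-transformed the counts of each cell, clustered the merged libraries, named clusters by hand and listed markers. The values used are deposited fractions of cells in which a gene had a value greater than 0, in a cluster and in its reference cells, printed here as percentages. The columns of log2 fold change, p-value and adjusted p-value, 3 in each table, hold the authors' comparisons and were not used. Every entry has at least 1 share of 25% or more. Of the entries, 7 have a date for a gene name, 0 of them for Hepatocyte2.

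Cluster sizes were computed by least squares from the 486 genes listed for at least 2 hepatocyte clusters (1115 genes in the table of all cells), on the balance of both shares, and tested on simulated data. Bounds for unlisted genes follow from the same balance. Coordinates and transcript lengths are from GENCODE M21 (GRCm38), promoters from RefSeq (GRCm38.p6). The planned share of non-hepatocytes with each gene was not computed, because the tables differ in the share of the same cluster. No doublet caller was run here. Full values were planned for genes in both tables and the 20 largest differences, and are given for all members. Members, lists, roles and motifs were chosen with earlier results of these data known. Scripts ran in Python 3.11.15 with pandas 2.3.3, NumPy 2.4.6, SciPy 1.17.1 and matplotlib 3.10.9.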

Additional observations from a re-analysis of the deposited data

How the results depend on the processing

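The number of genes with a share at least 10 points higher in Hepatocyte2, 53, was 54 with a minimum of 5 points, 52 with 20 points and 44 among genes with a share of at least 50% on either side. The median difference of 33.65 points was 32.6 over the genes in both tables and 31.9 over those listed for no other hepatocyte cluster; these are fewer genes, and the cause of the move was not tested. The size of Hepatocyte2 among hepatocytes was 14.8% to 14.9% under every alternative run. Against all other cells, 7 of the 7 named genes in both tables kept the higher share in Hepatocyte2. For 25 of the 25 named genes of the hepatocyte table the plain ratio of shares, 1.34 to 3.27, was below the ratio of rates, 2.67 to 4.06. The alternative for the share of non-hepatocytes was not run, since that share was not computed. Leaving out a library was not possible in values pooled by the authors. No paired analysis was possible because each condition had 1 library and no test was made. The unknown number of UMIs per cell limits what any share shows.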
